A study of Drosophila melanogaster with 9 samples.

Results

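Transient overexpression of Insensible (Insb), a nuclear inhibitor of the transcription factors that act downstream of Notch, was used to push the extra neural stem cells of *brat*-null *Drosophila melanogaster* larval brains toward differentiation. The subject here is the set of 90 genes whose RNA was lower at both 9 and 18 hr of Insb overexpression than at 0 hr. They were selected on the measured values themselves, from 14560 genes in the table. A gene was taken if its mean over the 9 libraries was at least 5 CPM (the count divided by the library total and multiplied by 1000000), if all 6 values at 9 and 18 hr lay below all 3 values at 0 hr, and if both later group means were at most 0.75 of the 0 hr mean. Of 7862 genes with at least 5 CPM, 668 had all 6 later values below the 0 hr values, and 99 of these (1.26% of the 7862) also met both ratios. From these, 4 non-coding genes with CR names and 5 other genes (*tll*, *Six4*, *aub*, *LpR1* and *CG3829*) were set aside, which left 90. All 90 are annotated as protein coding.

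All 9 libraries came from larvae of one genotype, *brat* 11/Df(2L)Exel8040 with *2xTub-Gal80ts*, *Wor-Gal4* and *UAS-insb*, so the 0 hr brains carried the same *brat* lesion and transgenes as the others. The study also names *AseGal80*, with which the driver is active only in type II neuroblasts. The 0 hr group stayed at 25 °C, and the 9 and 18 hr groups spent their last 9 or 18 hr at 33 °C, with the total culture time the same in the 3 groups. Time at 33 °C and time with Insb therefore cannot be told apart. Each group had 3 libraries, each from a pool of whole brains, and the library totals were between 26533845 and 37109356 counts.

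In the type II lineage of the fly brain, a neuroblast divides asymmetrically to renew itself and to produce an intermediate neural progenitor (INP), which matures before it divides further. Brat is a translational repressor that the newborn INP needs to leave the stem cell state. Without it newborn, still immature INPs revert to type II neuroblasts that fill the brain. Such tumour-like neuroblasts keep growing, and growth of this kind depends on amino acid import, on translation and on growth regulators such as Myc. Whole brains also hold neurons, glia and other cells. In such bulk RNA, fewer cells of a type and less RNA per cell cannot be told apart.

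The transgene and the labelled tissue were checked first. The RNA of *insb*, listed under its older name *CG6520*, was at 33.1, 32.7 and 35.8 CPM at 0 hr, at 375, 393 and 399 CPM at 9 hr, and at 317, 330 and 357 CPM at 18 hr. The groups at 9 and 18 hr lay far above 0 hr, as the labels require. The neuroblast marker *dpn* was between 161 and 210 CPM in all libraries, the neuronal marker *elav* between 430 and 680 CPM and the glial marker *repo* between 52.3 and 63.5 CPM, so the labelled neural stem cells were sequenced together with neurons and glia. In genes with 20 to 6000 reads, 9 hr replicates 2 and 3 differed by less than the sampling noise (median chi-square 0.812 over 8163 genes, where 0.910 is the value for noise with both reads of a pair counted), against 2.03 to 6.26 in the other pairs within a group. They were counted as 1 sample in each mean ± SD, so that n = 2 at 9 hr and n = 3 at 0 and 18 hr.

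The 90 genes summed to 12714, 12732 and 12958 CPM at 0 hr, 8073, 8453 and 8469 CPM at 9 hr, and 8369, 9111 and 8607 CPM at 18 hr. The median ratio to the 0 hr mean was 0.638 at 9 hr and 0.675 at 18 hr, against 1.01 and 0.998 over all genes of at least 5 CPM. These ratios are the values that selected the genes and are given only as a description. The levels were those of ordinary brain genes, with a median of 52.1 CPM at 0 hr against 49.4 CPM for all genes of at least 5 CPM. At 9 hr 13 genes were at 0.5 of the 0 hr mean or less, and at 18 hr only 2 were, *CG6357* and *CG7342*.

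**Figure D1:**
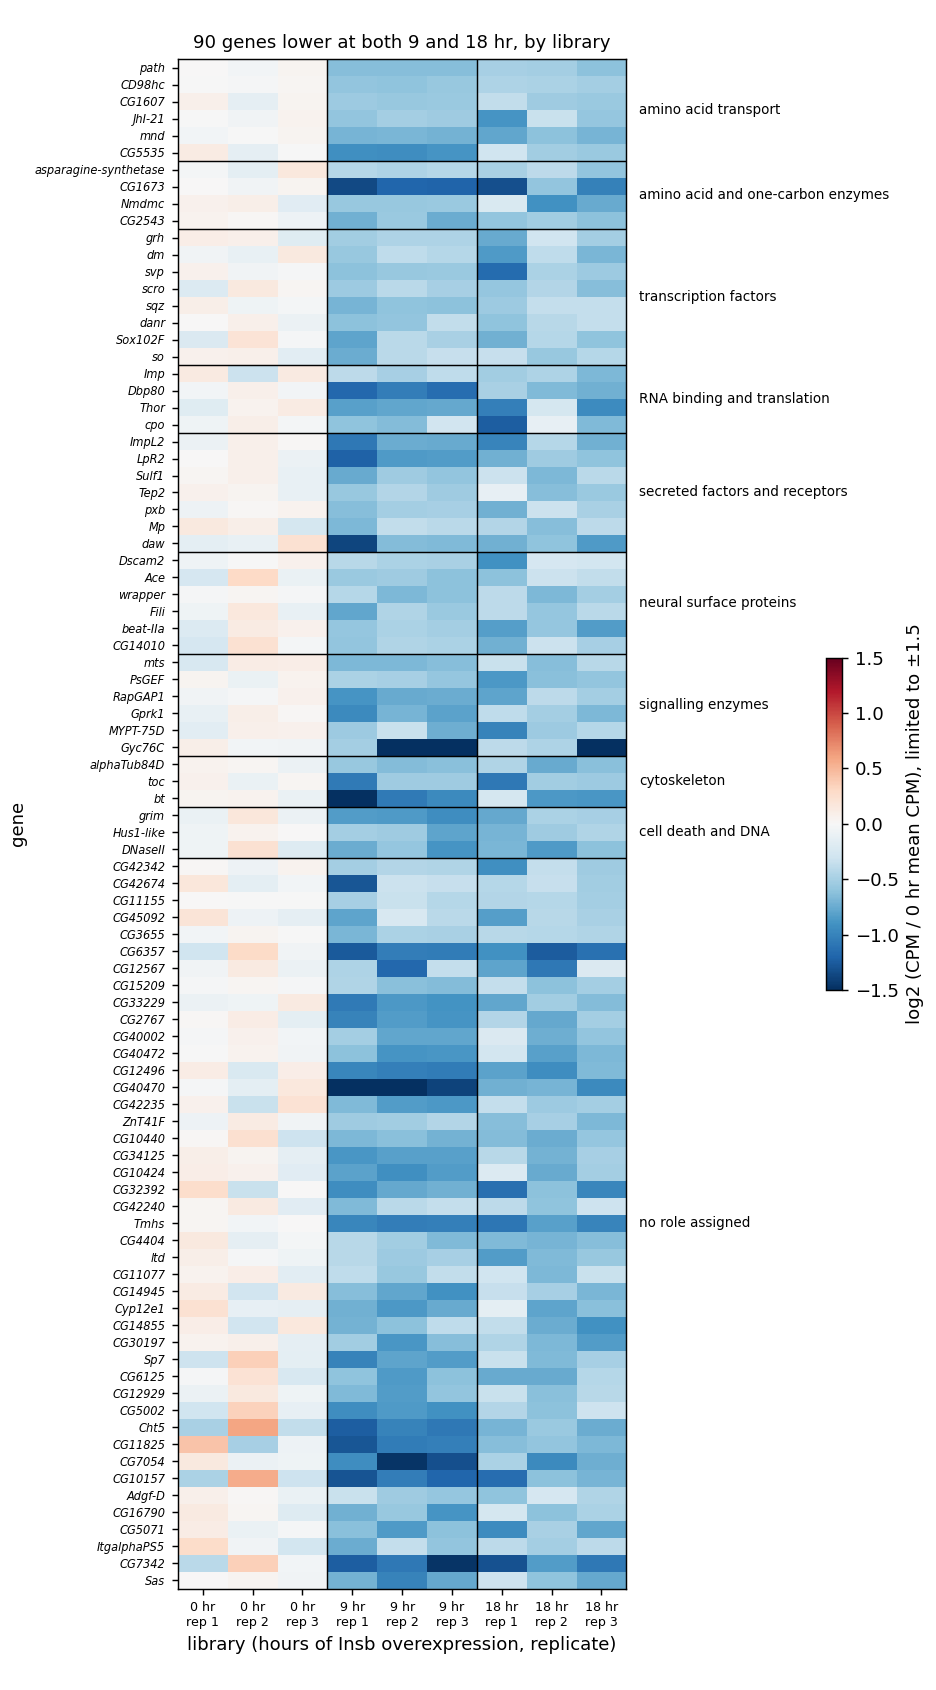
Each row is 1 of the 90 genes, grouped by role, with the 43 genes of no assigned role as the last group. Each column is 1 library (0, 9 and 18 hr of Insb overexpression, 3 replicates each). Colour gives log2 of the CPM over the gene's 0 hr mean, limited to 1.5 in either direction. All later libraries are blue by selection, and single dark or pale cells such as *Gyc76C* at 9 hr or *cpo* at 18 hr show where 1 library stood apart.

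Most members changed moderately, and 28 of the 90 were lower by 1.5-fold or more at both times. Just inside the limit of 0.75 were *sqz*, with ratios of 0.643 at 9 hr and 0.748 at 18 hr, *CG11155*, with 0.748 and 0.727, and *Imp*, with 0.745 and 0.684. Just outside were *CG43902*, with 0.751 at 9 hr and 0.682 at 18 hr, *klu*, with 0.731 and 0.752, and *Rbp6*, with 0.752 and 0.731. In a model fitted across 10799 genes with edgeR's quasi-likelihood test, 55 of the 90 passed an adjusted p of 0.05 with a 1.5-fold fall at 9 hr, where 1.19% of all tested genes did. At 18 hr 17 of the 90 passed, where 0.278% of all tested genes did. The rule used both contrasts, so nothing is read from these counts. With the near-identical 9 hr pair summed into 1 library, 35 of the 90 passed at 9 hr and 11 at 18 hr, and over all genes the share that passed with a fall was lower too, 0.61% at 9 hr and 0.155% at 18 hr.

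**Figure D2:**
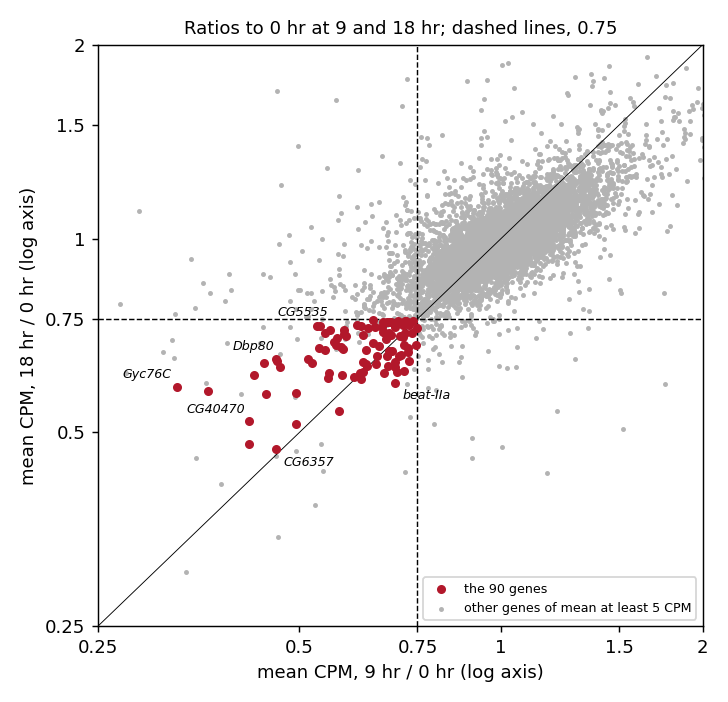
Mean CPM at 9 hr over 0 hr (x axis) against 18 hr over 0 hr (y axis), both on log axes, for the 90 genes and for 7669 other genes of at least 5 CPM. A further 103 genes lie outside the axes. The dashed lines mark 0.75 and the thin line equal ratios. Most of the 90 lie above the thin line, nearer to 1 at 18 hr than at 9 hr, and *CG6357* has the lowest 18 hr ratio, 0.471.

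A group of 6 members encodes proteins of amino acid uptake. Counted per kb of merged exon, which allows levels of different genes to be compared, *CD98hc* at 453 CPM per kb and *path* at 437 CPM per kb had the highest 0 hr levels of the 90. The other transporter genes were at 215 (*CG1607*), 194 (*JhI-21*), 143 (*mnd*) and 53.4 CPM per kb (*CG5535*). *CD98hc* (chromosome 3R, 7974409 to 7978428 in dm6) encodes the heavy chain that carries amino acid exchangers of the SLC7 family to the cell surface, and *CG1607*, *JhI-21* and *mnd* encode light chains of this family. *path* (chromosome 3L, 9494555 to 9505328) encodes a transporter of the SLC36 family, and *CG5535* a cationic amino acid transporter.

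The RNA of *path* was at 1398, 1355 and 1434 CPM at 0 hr, at 899, 898 and 900 CPM at 9 hr, and at 986, 981 and 912 CPM at 18 hr. The replicates were tight, with 1396 ± 39.3 CPM at 0 hr, 899 ± 0.149 CPM at 9 hr and 959.9 ± 41.6 CPM at 18 hr (SD, n = 3, 2 and 3), and no 18 hr value reached down into the 9 hr values. The RNA of *CD98hc* was at 1067, 1059 and 1097 CPM at 0 hr, 715, 708 and 727 CPM at 9 hr, and 779, 774 and 755 CPM at 18 hr. The pattern was that of *path*, with ratios to 0 hr of 0.67 at 9 hr and 0.72 at 18 hr.

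The light chain gene *CG1607* had 722, 626 and 706 CPM at 0 hr, 471, 462 and 466 CPM at 9 hr, and 529, 471 and 464 CPM at 18 hr. The values of *mnd* were 356, 363 and 376 CPM at 0 hr, 224, 226 and 224 CPM at 9 hr, and 212, 239 and 224 CPM at 18 hr, so that both later groups sat at the same level with ratios of 0.616 and 0.617. *JhI-21* had 458, 443 and 474 CPM at 0 hr, 303, 322 and 318 CPM at 9 hr, and 249, 365 and 305 CPM at 18 hr, with the widest 18 hr spread of the 6. Replicate 1 at 18 hr, low here, was the lowest of its group in 34 of the 90 genes and the highest in 35. Over all genes of at least 5 CPM it was the lowest in 31.2% and the highest in 51.2%. An exon of *JhI-21* overlaps *CG14945* on the opposite strand, which is also 1 of the 90, and without strand in the counting their reads there cannot be told apart. *CG5535* had 134, 112 and 122 CPM at 0 hr, 65.0, 64.1 and 66.4 CPM at 9 hr, and 99.7, 85.5 and 83.3 CPM at 18 hr. Its 9 hr ratio of 0.532 was the lowest of the 6 and its 18 hr ratio of 0.730 the highest.

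**Figure D3:**
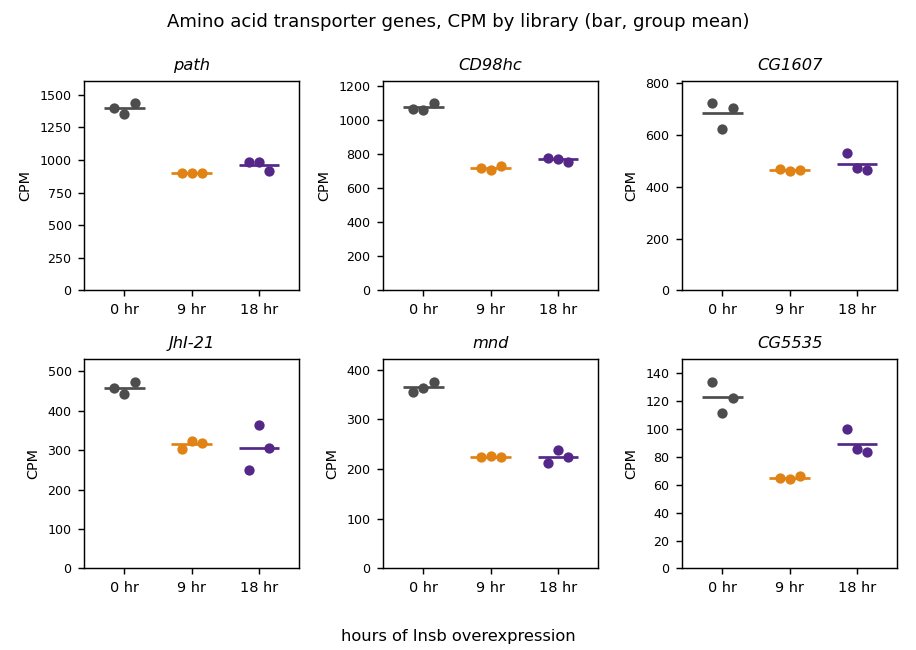
CPM in each library (points) and means of the 3 libraries (bars) for 6 amino acid transporter genes at 0, 9 and 18 hr, each panel with its own axis from 0. The later points lie below the 0 hr points in all 6 by selection. In *path*, *CD98hc* and *CG5535* the 18 hr points also lie above the 9 hr points, and in *CG5535* the gap is widest for its level.

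The whole families were looked up after the 6 had been seen among the members. Of 11 genes of the CD98 and SLC7 families, 5 were members, and 3 of the 11 (*CD98hc*, *mnd* and *CG5535*) passed the edgeR test with a 1.5-fold fall at 9 hr, 1 of the 11 (*mnd*) at 18 hr, and none in the other direction. Of the relatives that were not members, *gb* had ratios of 0.870 at 9 hr and 0.899 at 18 hr, and *CG9413* had 0.858 and 0.826. *CG13248* had 1.07 and 1.11, and *CG12531* had 1.35 and 1.02. Not every relative is named here. The median log2 fold change of the 11 was -0.57 at 9 hr, the value of *JhI-21*, and -0.46 at 18 hr, that of *CG5535*. At least 1 relative that was not a member therefore fell further than *JhI-21* at 9 hr, and at least 1 further than *CG5535* at 18 hr. *CG7255* was too variable to judge, with 18.8, 3.61 and 5.71 CPM at 0 hr. Of 11 genes of the SLC36 family, *path* alone was a member, and 6 of the others were below 1 CPM.

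A further 4 members are enzymes of amino acid and one-carbon metabolism. *CG1673*, named *Bcat* in the current annotation, encodes the branched-chain amino acid aminotransferase. It had 79.5, 76.0 and 81.2 CPM at 0 hr, 30.9, 34.5 and 34.3 CPM at 9 hr, and 31.7, 52.5 and 39.0 CPM at 18 hr, and 18 hr replicate 2 stood above the other later libraries. Its ratios of 0.421 and 0.521 were the lowest of the 4. The gene for asparagine synthetase had 173, 159 and 196 CPM at 0 hr, 130, 127 and 130 CPM at 9 hr, and 125, 134 and 116 CPM at 18 hr. *Nmdmc*, a mitochondrial enzyme of the folate cycle, had ratios of 0.675 and 0.658, and *CG2543* (*Fpgs1*), which adds glutamates to folate, had 0.629 and 0.671. Over the list of amino acid metabolism as a whole, 20 genes were tested and 2, both members, passed with a fall at 9 hr. The median log2 fold change of the list at 9 hr was 0.00, as it was over all genes tested. The lists for nucleolus and ribosome biogenesis, cell cycle, respiratory chain and glycolysis held no member. On these 4 lists 2 genes passed at 9 hr, 1 each for ribosome biogenesis and glycolysis, both with a rise.

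Transcription factor genes among the members had 9 hr ratios of 0.643 to 0.730 and 18 hr ratios of 0.618 to 0.748. The one with the highest CPM, uncorrected for length, was *grh* (Grainyhead, a factor of neuroblasts and later INPs), with 553, 544 and 455 CPM at 0 hr, 360, 375 and 374 CPM at 9 hr, and 306, 420 and 365 CPM at 18 hr. Of 22 genes of type II neuroblast and INP identity, *grh* alone was a member. At 9 hr 2 of the 22 passed with a fall and 2 with a rise, and at 18 hr 2 passed with a fall and 5 with a rise, with *grh* in none of these counts. The growth regulator *dm*, which encodes Myc, had 410, 391 and 469 CPM at 0 hr, 287, 325 and 315 CPM at 9 hr, and 234, 325 and 262 CPM at 18 hr. It was the only member of the list of Notch targets, where 17 genes were tested. At 9 hr 1 of them passed with a fall and 1 with a rise, and at 18 hr 1 and 3 did, none of them *dm*. Exons of *grh* and of *dm* overlap RNA genes, and *dm* also overlaps *CG12535* on the other strand.

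*svp*, a nuclear receptor that acts in the temporal programme of neuroblasts, had 164, 151 and 155 CPM at 0 hr, 103, 106 and 106 CPM at 9 hr, and 70.5, 113 and 107 CPM at 18 hr. Without 18 hr replicate 1 its later values were therefore alike at 9 and 18 hr. *sqz*, a zinc finger factor, had 78.6, 70.9 and 72.8 CPM at 0 hr, 45.8, 48.9 and 48.3 CPM at 9 hr, and 51.0, 57.7 and 57.7 CPM at 18 hr, and was the only one of the 8 whose 18 hr values all lay above its 9 hr values. The homeobox genes *scro* and *so*, the antennal factor *danr* and the Sox gene *Sox102F* had 18 hr ratios of 0.683, 0.733, 0.729 and 0.668. *so* was the only member of the list of eye and imaginal disc genes, of which none of the 13 tested passed at either time. Of the 8, *grh*, *dm*, *sqz*, *scro*, *danr* and *so* did not stay members with each library left out in turn.

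Genes for RNA-binding proteins and a translation inhibitor were also among the members. *Imp*, an mRNA-binding protein of young neuroblasts, had 428, 310 and 427 CPM at 0 hr, 295, 276 and 297 CPM at 9 hr, and 271, 282 and 243 CPM at 18 hr. The 0 hr replicate 2 stood low, close to the later values, and *Imp* was near the limit of the rule. *Thor*, which encodes the translation inhibitor 4E-BP, had 145, 171 and 179 CPM at 0 hr, 93.7, 96.0 and 96.5 CPM at 9 hr, and 80.9, 137 and 86.0 CPM at 18 hr. The RNA-binding protein gene *cpo* was the least even of the 4 at 18 hr, with 45.6, 98.6 and 67.8 CPM against 103, 114 and 105 CPM at 0 hr.

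*Dbp80*, a DEAD-box helicase that works in mRNA export, had 218, 238 and 219 CPM at 0 hr, 99.3, 110 and 102 CPM at 9 hr, and 160, 143 and 136 CPM at 18 hr. None of the groups overlapped. The level was 225 ± 11.4 CPM at 0 hr, 103 ± 4.83 CPM at 9 hr and 146 ± 12.4 CPM at 18 hr (SD, n = 3, 2 and 3). Of 22 genes of neuroblast self-renewal and temporal RNA-binding proteins, *Imp* and *dm* were the members, and 1 other gene passed with a fall at each of the later times.

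**Figure D4:**
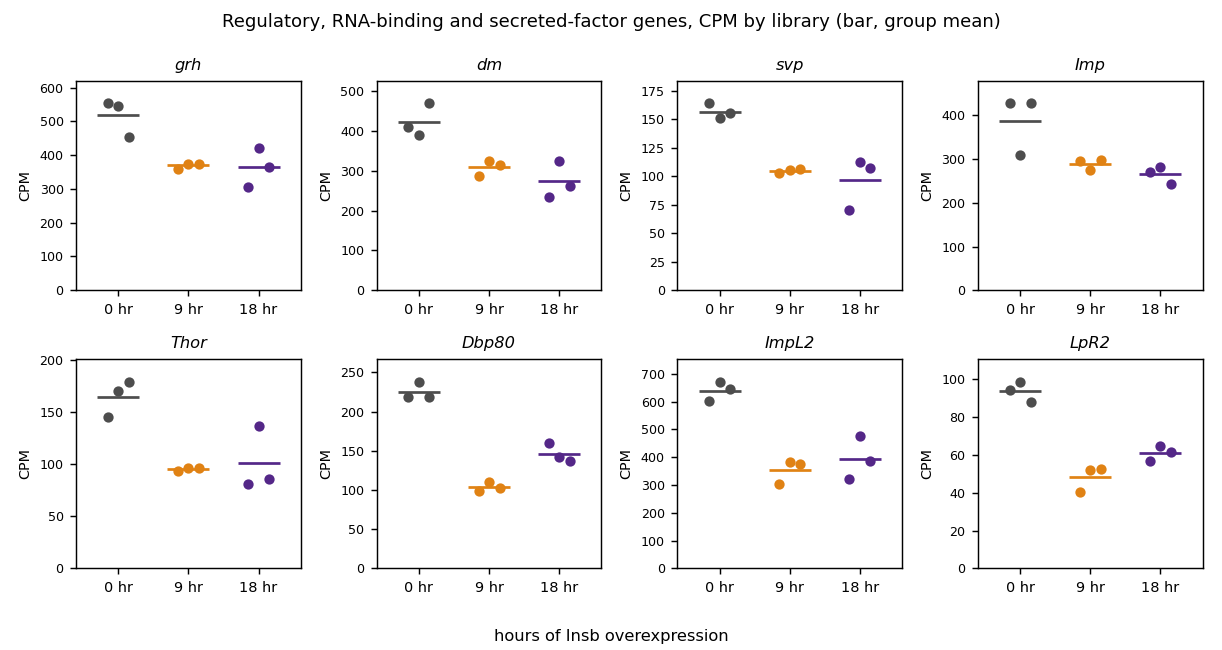
CPM in each library (points) and means of the 3 libraries (bars) for 8 members that encode transcription factors, RNA-binding proteins, a translation inhibitor, a secreted factor and a receptor, at 0, 9 and 18 hr, each panel with its own axis from 0. The later points lie below the 0 hr points by selection. *Dbp80* and *LpR2* are higher at 18 than at 9 hr in every library, and *grh*, *dm*, *svp*, *Thor* and *ImpL2* show a wide spread at 18 hr.

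Members that encode secreted factors and receptors were led by *ImpL2*, whose product binds insulin-like peptides and limits growth. It had 602, 672 and 645 CPM at 0 hr, 304, 381 and 377 CPM at 9 hr, and 323, 476 and 387 CPM at 18 hr. The ratios were 0.554 and 0.618. In the ecdysone response list *ImpL2* was the only member. Of its 18 tested genes, 1 passed with a fall at 9 hr, *ImpL2* itself, and 1 with a rise. *LpR2*, a lipophorin receptor for lipid uptake, had 94.2, 98.5 and 87.8 CPM at 0 hr, 40.4, 51.8 and 52.2 CPM at 9 hr, and 56.5, 64.4 and 61.7 CPM at 18 hr. Of 26 tested genes of lipid uptake and metabolism, 5 passed with a fall at 9 hr, *LpR2* among them, and 1 at 18 hr, *LpR2* itself. The rule selected *LpR2* on these same contrasts, so nothing is read from its calls. *daw*, an Activin-type ligand, had 31.5, 32.4 and 40.8 CPM at 0 hr, 13.4, 22.2 and 22.1 CPM at 9 hr, and 21.2, 22.97 and 19.4 CPM at 18 hr. *Sulf1*, an extracellular heparan sulfate sulfatase, the collagen gene *Mp*, *pxb* and the thioester protein gene *Tep2* had 9 hr ratios of 0.649 to 0.719 and 18 hr ratios of 0.707 to 0.745.

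Surface proteins of neurons and glia made up 6 members. *Dscam2*, a homophilic recognition protein, had 301, 314 and 328 CPM at 0 hr, 236, 226 and 225 CPM at 9 hr, and 167, 264 and 260 CPM at 18 hr. *Ace*, the acetylcholinesterase gene, had 193, 283 and 214 CPM at 0 hr, 157, 159 and 150 CPM at 9 hr, and 150, 183 and 178 CPM at 18 hr. *beat-IIa* had the lowest 18 hr ratio of the 6, 0.597, and *CG14010* (*DIP-eta*) and *Fili* had 0.706 and 0.729. *wrapper*, an immunoglobulin protein of glia, had 97.0, 100 and 97.2 CPM at 0 hr, 72.6, 61.4 and 64.0 CPM at 9 hr, and 74.7, 61.6 and 68.7 CPM at 18 hr. It was the only member among 17 glial genes tested and the only one of them to pass at 9 hr, and none passed at 18 hr. The summed glial list was at 1255 to 1452 CPM at 0 hr, at 1115 to 1199.9 CPM at 9 hr and at 1137 to 1465 CPM at 18 hr, lower at 9 hr than at 0 hr without overlap. Its part in the values of *wrapper* was not tested.

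Among signalling and cytoskeletal genes, *mts*, the catalytic subunit of the phosphatase PP2A, had 578, 736 and 729 CPM at 0 hr, 428, 426 and 436 CPM at 9 hr, and 538, 436 and 510 CPM at 18 hr. *RapGAP1*, an inhibitor of Rap GTPases, had 201, 205 and 217 CPM at 0 hr, 112, 123.04 and 124 CPM at 9 hr, and 120, 158 and 145 CPM at 18 hr. *PsGEF*, a guanine nucleotide exchange factor, was lower in every 18 hr library than in any 9 hr library, with 316, 286 and 318 CPM at 0 hr, 220, 218 and 205 CPM at 9 hr, and 169, 199 and 204 CPM at 18 hr. The tubulin gene *alphaTub84D* had 364, 360 and 332 CPM at 0 hr, 236, 223 and 229 CPM at 9 hr, and 258, 209 and 228 CPM at 18 hr. *bt*, which encodes the muscle protein projectin, had 21.6, 21.8 and 19.5 CPM at 0 hr, 6.99, 10.1 and 10.8 CPM at 9 hr, and 17.4, 11.5 and 11.4 CPM at 18 hr, and was the only member of the muscle list and the only one of its 16 tested genes to pass at 9 hr. That list summed to 517 to 615 CPM at 0 hr, 394 to 482 CPM at 9 hr and 468 to 670 CPM at 18 hr. Its part in the values of *bt* was not tested.

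The lists for neurons, fat body, hemocytes, trachea and ring gland held no member, and no gene on them passed at 9 or 18 hr in either direction. Their summed levels overlapped between each later group and 0 hr. The hemocyte list ran wide, from 163 to 437 CPM over the 0 hr libraries, 233 to 310 CPM over the 9 hr libraries and 166 to 718 CPM over the 18 hr libraries. The heat response list held no member either, and 1 of its 19 genes passed at 9 hr, with a rise. Nor did the lists of cytochrome P450 and glutathione genes, where 2 of 27 tested genes passed with a fall at 9 hr, and of germline and piRNA genes, where 3 of 18 passed with a fall and 2 with a rise.

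Ratios near or under 0.5 at 9 hr were found in genes of several kinds. *CG40470* (chromosome 3L, 23839860 to 23986410) had 51.5, 47.2 and 58.4 CPM at 0 hr, 18.6, 18.6 and 20.05 CPM at 9 hr, and 31.7, 32.3 and 27.1 CPM at 18 hr. *CG6357*, a cysteine protease of the cathepsin kind and the only one of 13 tested proteases on its list to pass, had 75.4, 113 and 89.3 CPM at 0 hr, 38.6, 45.2 and 44.7 CPM at 9 hr, and 49.4, 38.9 and 42.5 CPM at 18 hr. *Tmhs* was the steadiest of these, with 30.5, 28.9 and 30.1 CPM at 0 hr, 15.2, 14.5 and 14.6 CPM at 9 hr, and 14.1, 16.9 and 15.03 CPM at 18 hr. *CG12496* had ratios of 0.493 and 0.576.

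For several other genes with low ratios the replicates disagreed. *Gyc76C*, a receptor guanylate cyclase, had the lowest 9 hr ratio, 0.328, but its 9 hr values were 6.75, 0.0274 and 2.64 CPM, and the second of these was a single read. Part of *Gyc76C* overlaps *CG42637* on the same strand. *Cht5*, a chitinase, had 7.44, 15.8 and 8.08 CPM at 0 hr and *CG10157* (*GILT2*) 6.999, 14.2 and 7.84 CPM, so that 0 hr replicate 2 held their 0 hr means up. *CG7342* had 6.06, 10.3 and 7.79 CPM at 0 hr, and *CG11825* had 13.2, 6.98 and 9.30 CPM. *CG7054* was more even at 0 hr, with 11.1, 9.53 and 9.62 CPM. It had 5.27, 3.64 and 4.03 CPM at 9 hr, and 7.27, 5.21 and 6.09 CPM at 18 hr. *CG42342*, an abundant gene with no role given here, had 551, 516 and 565 CPM at 0 hr, 383, 402 and 399 CPM at 9 hr, and 288, 424 and 375 CPM at 18 hr.

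Whether the members recovered or went on falling between the later times was asked with the contrast of 18 hr with 9 hr. The rule did not use this contrast, although the values of both groups entered it. It capped both groups in the members and not in other genes. Shares over all genes are therefore no like-for-like background and are given only as a description. No member passed an adjusted p of 0.05 in edgeR's quasi-likelihood test (smallest adjusted p = 0.166), where 1 of all 10799 tested genes did (0.00926%). In simulated data this test found 29 of 100 genes changed 1.5-fold. Those genes were drawn from a lower limit than the 5 CPM of the members, so the rate for the members was not measured. The lack of calls does not show that the members stayed level. At an unadjusted p under 0.05, 19 members were higher at 18 hr and 0 were lower, against 4.75% higher and 6.09% lower over all tested genes. DESeq2's Wald test called 5 members, all higher at 18 hr (*Dbp80*, *CG5535*, *CG40470*, *CG2767* and *CG34125*), and 89 of 9974 genes with an adjusted p (0.892%) were called higher by that test. The median log2 fold change of the 90 was 0.11, against 0.01 over all tested genes. It was positive in 70 of the 90 and in 52.3% of all tested genes. By mean CPM, 64 of the 90 were higher at 18 hr. With 1 library left out, the fitted count ran from 61 (without 9 hr replicate 1 or 18 hr replicate 2) to 74 (without 18 hr replicate 1).

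By the values alone, 21 members had all 3 values at 18 hr above all 3 at 9 hr, where 6.78% of the genes of at least 5 CPM did, and 2 had them all below, where 14.6% of those genes did. The remaining 67 overlapped, and the shares over all genes are again only a description. The 21 included *path*, *CD98hc*, *CG5535*, *Dbp80*, *LpR2*, *sqz*, *Gprk1*, a kinase of G protein-coupled receptors, and *grim*, an activator of cell death. The 2 below were *PsGEF* and *ltd*, which encodes the GTPase Rab32 and had 12.9, 14.6 and 15.5 CPM at 18 hr against 17.2, 15.8 and 16.4 CPM at 9 hr.

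The 5 highest log2 fold changes of 18 hr over 9 hr were those of *Gyc76C* (0.87 ± 1.03, SE), *CG40470* (0.69 ± 0.11), *bt* (0.55 ± 0.20), *CG7054* (0.54 ± 0.17) and *Dbp80* (0.52 ± 0.07). The adjusted p of *CG40470* and of *Dbp80* in edgeR was 0.166 and that of *Gyc76C* 0.787. The 5 lowest were those of *beat-IIa* (-0.19 ± 0.12), *ltd* (-0.18 ± 0.09), *dm* (-0.15 ± 0.14), *PsGEF* (-0.14 ± 0.09) and *CG4404* (-0.11 ± 0.09), all with an adjusted p of at least 0.532. By role, the median log2 fold change was highest for signalling enzymes, at 0.24, and was 0.18 for the 43 genes with no role given. It was 0.16 for secreted factors and receptors, 0.10 for the amino acid transporters and 0.00 for the transcription factors. The other roles lay between 0.03 and 0.08. These are descriptions of small groups and were not tested against each other.

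**Figure D5:**
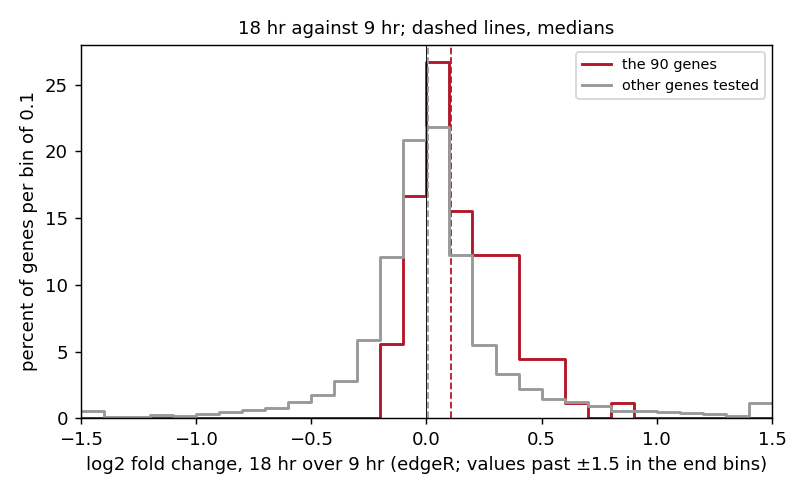
Distribution of the log2 fold change of 18 hr over 9 hr from edgeR (x axis) as the percent of genes in bins of 0.1 (y axis), for the 90 genes and for the other genes tested. Dashed lines mark the medians. Of the 90 genes, 20 lie below 0, the lowest at -0.19, and the rest reach to 0.87, with a median of 0.11.

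The members were spread over all chromosome arms. Of the 90, 30 were on 3R, 20 on 3L, 15 on 2R, 11 on 2L, 10 on X and 4 on chromosome 4. Chromosome 4 holds 0.972% of the genes of at least 5 CPM and 4.44% of the members, *bt*, *Sox102F*, *CG11077* (*Mpv17*) and *CG11155*, of which *bt* and *Sox102F* lie 23961 bases apart. The 76 placed genes of chromosome 4 had a median log2 fold change of -0.08 at 9 hr and -0.06 at 18 hr against 0 hr. Within 5 Mb of the centromere end of an arm lay 8.89% of the members and 7.83% of all genes of at least 5 CPM, *Dbp80* and *CG40470* among them. Neighbouring members were few: *CG14945* and *JhI-21* overlap, *cpo* and *DNaseII* lie 482 bases apart, *Imp* and *CG15209* 17927 bases, *PsGEF* and *CG12496* 21700 bases, and *CD98hc* and *CG2767* 27495 bases. An exon of another gene overlaps 30 of the 90.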

How the data were processed

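RNA-seq of 9 libraries from *brat*-null larval brains was used, 3 each at 0, 9 and 18 hr of Insb overexpression, grouped by their labels. Paired-end poly-A reads had been mapped by the authors with HISAT2 version 2.1.0 (genome dm6), and they quantified genes with StringTie version 1.3.4 and tested with DESeq2 version 1.20.0, with FastQC version 0.11.3 also named in the processing notes. The annotation and the use of strand are not given in the sources used here. They deposited whole-number counts per gene without normalization. Because reads were counted without a stated use of strand, overlapping genes are uncertain.

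CPM was computed as the count over the library total. The 90 genes, the gene lists and the roles were chosen with earlier results of these data known, and the CD98, SLC7 and SLC36 lists were drawn up after the members were known. For the fit, genes were filtered with filterByExpr (10799 of 14560 kept), scaled with TMM and tested with edgeR version 4.0.16 in a single model of the 9 libraries (quasi-likelihood, Benjamini-Hochberg adjustment over all tested genes) in R version 4.3.3. On simulated data for 18 hr against 9 hr, the test found 60 of 100 genes changed 2-fold and 29 of 100 changed 1.5-fold. It also called 6 unchanged genes. A call needed an adjusted p under 0.05 and, against 0 hr, a fold change of at least 1.5. The fit kept 9 hr replicates 2 and 3 apart, although means and SDs count them as 1. The labels do not say that replicates are separate cultures. The methods call them biological triplicates. Correlations of same-numbered deviations from the group means ran between -0.292 and 0.439, the highest for replicate 1 at 18 and 0 hr. Pairing by number was not tested, and the main fit did not pair the samples.

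Genes were named by rule: the 12 with the highest mean CPM, the 12 with the lowest mean ratio, the 3 on each side of the limit of 0.75, the 5 highest and 5 lowest log2 fold changes of 18 hr over 9 hr, and the members on a list. The other members named (such as *CG5535*, *svp*, *Thor* and *Dscam2*) were picked by role after their values were seen. Of the 14560 names, 11086 were current symbols and 3383 older ones in RefSeq Release 6, which also gave the coordinates. Strands, exon lengths and exon overlaps came from Ensembl's annotation of the same assembly. Promoter motifs were not analysed here. Alternatives were other scalings and filters, DESeq2 version 1.42.0, other limits of the rule, the compared libraries alone, a replicate block and each library left out. The averaged 9 hr pair in the rule was added after seeing the data.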

Additional observations from a re-analysis of the deposited data

How the results depend on the processing

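The rule gave 102 genes with TMM-scaled CPM, 110 with DESeq2 size factors and 92 with the 9 hr pair averaged, an alternative added after seeing the data, and all 90 were among them each time. A ratio limit of 2/3 gave 28 genes and one of 0.80 gave 172. Leaving out 1 library at a time gave between 87 and 129 genes, and 50 of the 90 were found every time. Members that were lost at least once included *grh*, *dm*, *sqz*, *scro*, *danr*, *so*, *Imp*, *cpo* and *mts*. *Ace*, *Dscam2*, *CG5535*, *CG7342*, *CG11825*, *Cht5* and the asparagine synthetase gene were also lost at least once. The count of members called lower at 9 hr (55) was 35 with the 9 hr pair summed. Without 1 library it was between 36 (without 9 hr replicate 3) and 57. Over all genes the count moved too, from 129 to 67 with the pair summed and to 73 without 9 hr replicate 3. The count of members called lower at 18 hr (17) was 36 with DESeq2's Wald test, 4 with the compared libraries alone and 11 with the pair summed. Over all genes, where the main fit called 30, these settings called 74, 8 and 17. Without 1 library the count of members ran between 6 and 23. It was 6 without 18 hr replicate 3, 8 without 0 hr replicate 1, 10 without 0 hr replicate 3, and 11 without 9 hr replicate 2 or 3. Over all genes, 14 were called without 0 hr replicate 1, and 17 without 0 hr replicate 3. Without 9 hr replicate 2 or 3, 17 and 16 were called over all genes. For 18 hr against 9 hr, DESeq2's Wald test called 5 members and 207 genes in all. In all the other fits, those without 1 library included, 0 were called, and the median log2 fold change of the members stayed positive, between 0.09 and 0.15 without 1 library. With the replicate block, 50 members were called lower at 9 hr, 13 at 18 hr and 0 between the later times. Over all genes that fit called 95 lower at 9 hr, 18 lower at 18 hr and 0 between the later times. *CG40470* (log2 fold change 0.70) and *Dbp80* (0.52) passed only with DESeq2. Genes of a few CPM, such as *Gyc76C*, rest on few reads. The causes of these differences were not tested.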
